A study of Mus musculus with 6 samples.

Results

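The 10 genes described here are the cyclin-dependent kinase (CDK) inhibitors Cdkn1a, Cdkn1b, Cdkn1c, Cdkn2c and Cdkn2d, their interactors Cdkn3 and Cdkn2aip, and the pocket protein genes Rb1, Rbl1 and Rbl2. They were chosen by gene symbol, before any filter on level, from the 21878 genes of an expression table of HT22 cells. Of the 10 genes, 9 were expressed and tested, and 1, Cdkn1c, was listed at 0 in every library. HT22 is an immortalized mouse hippocampal neuronal line. RNA of control cells (n = 3 libraries) was compared with RNA of cells given 120 µM aluminum maltolate for 24 h (Al, n = 3 libraries), all from the input fraction of an m6A immunoprecipitation experiment. The treated libraries carry the letter M in the sample labels and were taken as the Al group, and the study's methods list both a control in medium alone and a maltol control, of which the sequenced libraries are labelled only as control. The submitters describe the libraries of a group as biological replicates, and all come from the same cell line, so p-values measure only the spread between replicate libraries of 1 line.

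CDKs drive the cell cycle when bound to cyclins, and the inhibitors hold them back. The CIP/KIP proteins p21 (Cdkn1a), p27 (Cdkn1b) and p57 (Cdkn1c) bind cyclin-CDK complexes, while the INK4 proteins p18 (Cdkn2c) and p19 (Cdkn2d) bind CDK4 and CDK6 themselves. The pocket proteins RB (Rb1), p107 (Rbl1) and p130 (Rbl2) are targets of these kinases, and in their unphosphorylated form they hold E2F transcription factors and keep cell cycle genes off. In neurons, which leave the cycle for good, and in senescent cells, which stop dividing while they stay alive, inhibitors and pocket proteins are the classic brakes.

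Promoter sequences are shown for Cdkn1a and Rbl1. Known regulators of both were also measured, as were those of Cdkn1b, whose promoter is not shown. The RefSeq promoter table (GRCm38.p6), with windows from 250 bases before to 50 bases after each start site, held 10 windows for 8 of the 10 genes, with none for Cdkn1c or Rb1. Only the stretch around each match is printed, 5′ to 3′ on the strand of the gene, with the matched motif in capitals. The first is the window of the upstream Cdkn1a start site, which holds a match to the p53 response element (searched as its full consensus, with at most 1 mismatch) beginning 51 bases before that start.
Cdkn1a, p53 element, chr17:29090899-29090978, plus strand: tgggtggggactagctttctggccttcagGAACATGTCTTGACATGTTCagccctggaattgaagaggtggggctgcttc
The second is the downstream Cdkn1a start site, shown for its GC boxes (GGGCGG), the sites bound by SP1, which begin 104 and 46 bases before the start.
Cdkn1a, GC boxes, chr17:29093659-29093768, plus strand: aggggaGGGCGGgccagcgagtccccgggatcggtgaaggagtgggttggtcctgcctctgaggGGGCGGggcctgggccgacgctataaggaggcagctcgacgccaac
The third is the Rbl1 promoter, shown for the E2F motif (TTTCGCGC or TTTGGCGC) beginning 18 bases before the start, since Rbl1 is itself a textbook target of the E2F factors that it binds.
Rbl1, E2F motif, chr2:157204535-157204594, minus strand: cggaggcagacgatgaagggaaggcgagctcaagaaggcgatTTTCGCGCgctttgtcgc
All searches covered both strands. The p53 element was found in 22 of the 32851 promoter windows of all genes (0.067%) and in no window of the other members. The E2F motif was found in 267 windows (0.813%), among the members in Rbl1 alone. GC boxes were found in 35.7% of all windows and in at least 1 window of each of the 8 members. The upstream Cdkn1a window and the Cdkn2c window at chr4:109665323-109665622 held none. The percentage counts windows and the 8 counts genes, so they are not the same measure. A match is a stretch of letters and does not show that a factor was bound.

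The values are FPKM, fragment numbers scaled to transcript length and library size, and can be compared between genes because they are given per length. For tests between groups each library was scaled by its size factor (median of ratios, 0.802 to 1.21), and log2(scaled FPKM + 0.1) was fitted with limma over 12889 genes, those whose mean FPKM reached 0.1. A gene was called changed at an unadjusted p under 0.05 with an absolute log2 fold change over 0.58, the thresholds of the study, and adjusted p is the Benjamini-Hochberg value over all genes tested. The Al libraries were shallower, with 20948807 to 26456909 recovered reads on the genes of the table against 37712069 to 44140943 in the controls. Over all genes Al replicate 3 lay between the other Al libraries and the controls. Its size factor was 0.932, against 0.802 and 0.815 in Al replicates 1 and 2 and 1.17 to 1.21 in control. Its FPKM sum was 428696, against 479075 and 474828 in those 2 libraries and 361083 to 385447 in control. As a check of the label, the neuronal markers Rbfox3, Map2, Snap25, Nefl and Dcx were at or near 0 in all 6 libraries, Tubb3 was at 5.32 FPKM in control and 3.398 in Al, and the summed level of the 8 neuronal markers ranged from 7.66 to 9.47 FPKM in control and from 3.89 to 7.504 in Al. The hippocampal neuron markers Prox1, Neurod1, Neurod6 and Grin1 were all below the filter, at 0.171 FPKM or less in every library. Of the astrocyte markers, Gfap and Aqp4 were at or near 0 and Slc1a3 was lower in Al (18.9 FPKM in control, 1.695 in Al). Of 4 oligodendrocyte and 4 microglia markers, Sox10 (0.0230 and 0.431 FPKM) and Cx3cr1 (0.0665 and 0.542 FPKM) were called higher in Al, both under 1 FPKM. The 4 fibroblast genes were among the abundant transcripts in both groups. They were Col1a1 (990 FPKM in control, 1327 in Al), Col1a2 (1657 and 1619 FPKM), Fn1 (797 and 490 FPKM) and Vim (1160 and 1074 FPKM). Of these only Col1a1 was called higher in Al (scaled log2 fold change 0.92, limma adjusted p = 0.0219, and −0.46 after quantile normalization). Fn1 went the other way (−0.18 scaled, −1.33 after quantile normalization), and Vim turned from 0.37 to −0.98. After quantile normalization 3 of the 4 were called lower. The part of these markers in the results was not tested.

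In the Al libraries 3 of the 9 tested genes were higher, 3 were lower and 3 did not pass the test. The 3 genes that rose were Cdkn1a, Cdkn2aip and Cdkn2c, and the 3 that fell were all the pocket protein genes. A large part of the transcriptome differed between the groups, with 26.2% of all genes tested called higher and 24.4% called lower with size factors. The members' shares of 3 of 9 in each direction stand near that background. Likewise 6 of the 9 had an adjusted p under 0.05, against 62.1% of all genes, and 6 of the 9 had scaled values that did not overlap between the groups, against 68.1%. The median log2 fold change of the 9 genes was −0.20, beside 0.03 over all genes tested. The findings below are therefore about which members moved, which way and by how much. In bulk RNA, fewer cells expressing a gene and less of its RNA per cell cannot be told apart.

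**Figure D1:**
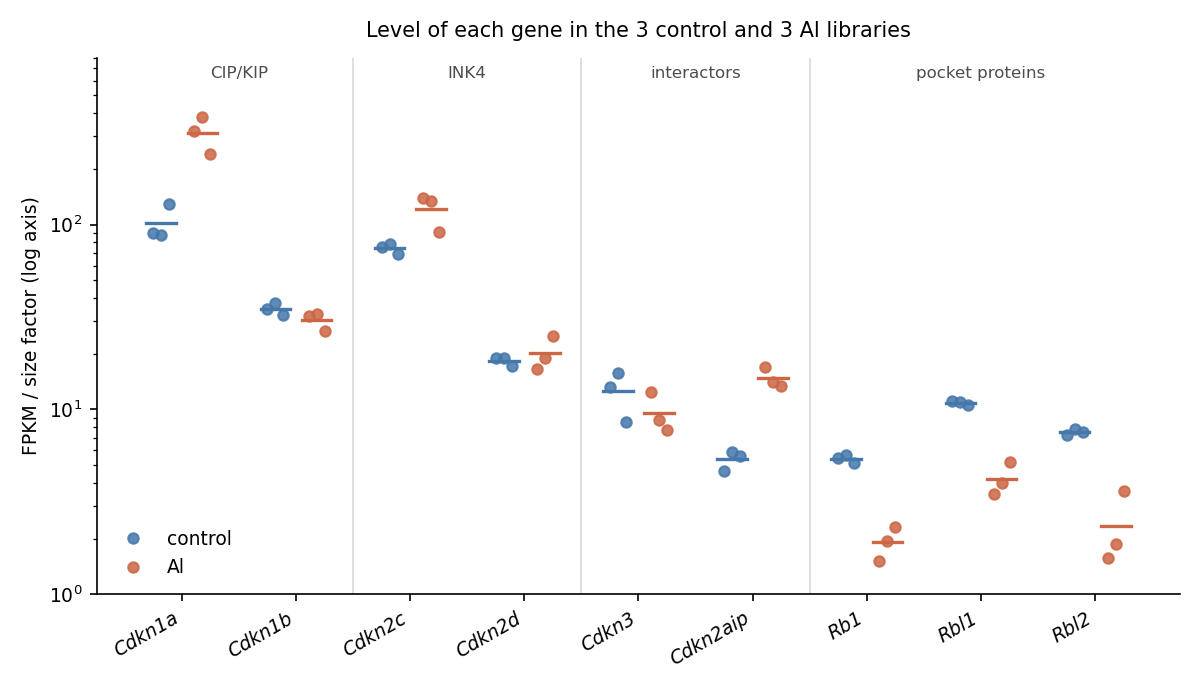
Scaled FPKM (log axis) of the 9 expressed genes in each control (blue) and Al (orange) library, grouped by family, with a bar at the mean of 3 libraries. The Al points lie above the control points for Cdkn1a, Cdkn2c and Cdkn2aip, below them for Rb1, Rbl1 and Rbl2, and overlap them for Cdkn1b, Cdkn2d and Cdkn3.

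Cdkn1a, the p21 gene and the best known transcriptional target of p53, was the most abundant inhibitor in both groups. Its FPKM was 107, 106 and 151 in control libraries 1, 2 and 3, and 256, 311 and 223 in the Al libraries (means 122 ± 25.7 and 263 ± 44.2, SD, n = 3). The lowest Al library lay above the highest control library, and control replicate 3 was the control nearest to the Al group. After scaling, Cdkn1a rose by a log2 fold change of 1.61 (SE 0.21, 95% interval 1.13 to 2.08, 3.05-fold, limma adjusted p = 0.000238). Among the genes detected in a library, ranked from the most abundant, it moved from positions 517, 534 and 364 in control to 262, 211 and 243 in Al, a measure that needs no scaling between libraries. The level rests on 8305 to 13733 recovered reads in control and 9594 to 13896 in Al.

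Cdkn1b encodes p27, the inhibitor that accumulates in resting cells. Its FPKM was 41.2, 45.7 and 38.2 in control and 25.5, 26.9 and 24.8 in Al. As deposited, every Al value lay below every control value, while after scaling the groups overlapped (32.5 to 37.8 against 26.6 to 33.0). The scaled log2 fold change of −0.20 (95% interval −0.46 to 0.05, limma adjusted p = 0.148) did not pass the test, and without Al replicate 3 it was −0.10. On the FPKM as deposited it was −0.69, and on TPM (FPKM rescaled to a common total) −0.99, both past the thresholds. These 2 scalings moved the median of all genes by −0.46 and −0.75, and relative to the median of all genes Cdkn1b stood at −0.24, −0.26 and −0.27 under size factors, as deposited and TPM, and at −0.45 after quantile normalization. Its position among detected genes fell from 1499–1888 in control to 2197–2503 in Al.

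Cdkn1c, the p57 gene, was listed at 0 FPKM in all 6 libraries, which allows up to 3 reads in each if no read was counted. The broadly expressed E2f6 was also listed at 0 in every library, so a 0 in the table may also stand for a gene that was not quantified. The CIP/KIP sum used here is that of Cdkn1a and Cdkn1b alone. Cdkn1a made up 72.3%, 70.0% and 79.9% of it in control and 90.9%, 92.0% and 90.0% in Al. The share was 17.0 percentage points higher in Al, with no overlap between the groups (two-sided p = 0.1 by exact permutation, which 3 libraries against 3 cannot go below, and 0.5 after adjustment over 5 shares). Expressed as a ratio within a library, there were 2.33 to 3.96 units of Cdkn1a for each unit of Cdkn1b in control and 9.001 to 11.6 in Al.

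Among the INK4 genes, Cdkn2c was the more abundant in every library. Its FPKM was 89.3, 94.8 and 80.9 in control and 111, 109 and 85.1 in Al. The groups overlapped on this scale, because Al replicate 3 lay within the control range. After scaling they separated (68.9 to 78.4 against 91.3 to 139), with a log2 fold change of 0.68 (SE 0.16, 95% interval 0.31 to 1.06, 1.61-fold, limma adjusted p = 0.00629). The call of Cdkn2c depended on the scaling: the change was 0.20 on FPKM as deposited, 0.13 after quantile normalization and −0.10 on TPM, none of which passed. Relative to the median of all genes it was 0.65, 0.63 and 0.61 under size factors, as deposited and TPM, and 0.16 after quantile normalization. Without Al replicate 1 it was 0.58, just under the fold threshold.

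Cdkn2d, which encodes p19INK4d, was at 22.6, 22.9 and 20.04 FPKM in control and at 13.3, 15.5 and 23.3 in Al. Al replicate 3 was the highest of the 6 libraries and the other Al libraries were the lowest. The scaled log2 fold change was 0.12 (95% interval −0.22 to 0.46, limma adjusted p = 0.504), and it was −0.03 without Al replicate 3. It was −0.37 on FPKM as deposited and −0.66 on TPM, where all genes shifted, and relative to the median of all genes it was 0.09, 0.07 and 0.05 under size factors, as deposited and TPM. The same library set the ratio of the INK4 pair. There were 3.95 to 4.15 units of Cdkn2c for each unit of Cdkn2d in the controls, 8.36 and 7.01 in Al replicates 1 and 2, and 3.65 in Al replicate 3 (exact permutation test, two-sided p = 0.4).

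The remaining INK4 genes of the mouse were not members but complete the family. Cdkn2a, which encodes p16INK4a and p19ARF, and Cdkn2b, which encodes p15, lie side by side on chromosome 4 (GRCm38, chr4:89274471-89294653 and chr4:89306299-89311039), and both were listed at 0 in all 6 libraries, as was the next gene, Dmrta1 (chr4:89679436-89694772). Mtap, the methylthioadenosine phosphorylase gene on the other side of the pair (chr4:89137122-89181081), was at 196 ± 29.1 FPKM in control and 94.8 ± 12.01 in Al (SD, n = 3). Its scaled log2 fold change of −0.55 missed the fold threshold (limma adjusted p = 0.0218), but it was called lower on FPKM as deposited (−1.04), on TPM (−1.34) and after quantile normalization (−1.17). The INK4 genes with values above 0 in the table were Cdkn2c and Cdkn2d, both at other loci (chr4:109660876-109667189 and chr9:21288410-21291407). As for Cdkn1c, a value listed at 0 does not show that a transcript was absent.

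**Figure D2:**
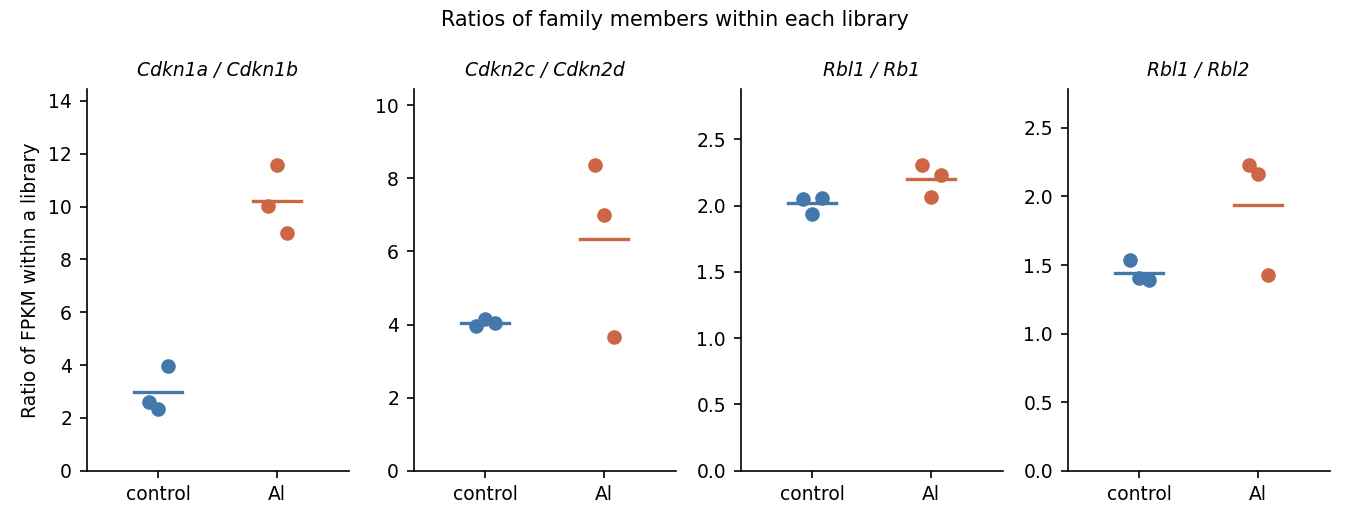
Ratio of the FPKM of 2 members within each library for 4 pairs, in control (blue) and Al (orange), with a bar at the mean of 3 libraries and axes that start at 0. The ratio of Cdkn1a to Cdkn1b lies between 2.33 and 3.96 in control and between 9.001 and 11.6 in Al, and the Rbl1 to Rb1 ratio between 1.94 and 2.06 in control and between 2.06 and 2.30 in Al, where the groups all but touch.

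Of the interactors, Cdkn2aip rose. It encodes CARF, a protein that binds ARF and p53. Its FPKM was 5.53, 7.06 and 6.60 in control and 13.5, 11.5 and 12.5 in Al. Every Al library was above every control library, and the log2 fold change after scaling was 1.44 (SE 0.14, 95% interval 1.13 to 1.75, 2.71-fold, limma adjusted p = 4.58e-05). Its place among detected genes moved from the middle of the range (48.4% to 54.0% of detected genes below it in control) to 70.2% to 74.4% below it in Al. Cdkn2aipnl, a gene named for its similarity to the N-terminal part of Cdkn2aip, was at 24.7 ± 3.57 FPKM in control and 14.3 ± 3.63 in Al (scaled log2 fold change −0.32, limma adjusted p = 0.0899, not called), and it was called lower on FPKM as deposited (−0.81) and on TPM (−1.10). The ratio of Cdkn2aip to Cdkn2aipnl was 0.247 to 0.275 in control and 0.685 to 1.21 in Al.

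Cdkn3 encodes KAP, a phosphatase that acts on CDK2 and is made by dividing cells. Its FPKM was 15.7, 19.1 and 9.99 in control and 9.94, 7.09 and 7.18 in Al. The controls spread over a wider range than the difference between the group means, and control replicate 3 lay beside the highest Al library. The scaled log2 fold change of −0.36 (95% interval −0.92 to 0.19, limma adjusted p = 0.223) did not pass. Without control replicate 3 it was −0.63 and passed, without control replicate 2 it was −0.19, and on FPKM as deposited it was −0.85. Cdkn3 rests on the fewest reads of the inhibitors and interactors, 396 to 737 in control and 135 to 236 in Al.

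All 3 pocket protein genes were lower in Al, and differences between their falls were not tested gene against gene. Rbl1, which encodes p107, the pocket protein of cycling cells, was the most abundant of them, at 13.2, 13.2 and 12.4 FPKM in control and 2.80, 3.27 and 4.82 in Al. The controls agreed closely and lay far above all Al libraries. Its log2 fold change was −1.36 (SE 0.15, 95% interval −1.71 to −1.02, 2.57-fold lower, limma adjusted p = 0.000109).

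Rb1, the retinoblastoma gene, was at 6.44, 6.83 and 6.002 FPKM in control and 1.21, 1.59 and 2.16 in Al. The groups did not overlap, and the log2 fold change was −1.46 (SE 0.18, 95% interval −1.86 to −1.06, 2.75-fold lower, limma adjusted p = 0.000155). Rb1 spans a long locus (chr14:73183673-73325822, GRCm38) with exons of other genes on the opposite strand. The library kit keeps the strand, but whether the counting used it is not given in the sources used here, and the same limit holds for Cdkn1a, Cdkn2aip and Rbl2. The Al values of Rb1 rest on 169 to 238 reads, against 1279 to 1548 in control.

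Rbl2 encodes p130, the pocket protein that predominates in resting cells. It was at 8.61, 9.41 and 8.89 FPKM in control and 1.26, 1.51 and 3.37 in Al. All Al libraries were below all controls, and Al replicate 3 stood apart from the other Al libraries, towards the controls. The log2 fold change was −1.73 (SE 0.27, 95% interval −2.35 to −1.12, 3.32-fold lower, limma adjusted p = 0.000633), and it was −2.07 without Al replicate 3.

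Summed over the 3 genes, the pocket protein level was 28.3, 29.5 and 27.3 FPKM in control and 5.27, 6.38 and 10.4 in Al. The makeup of this sum moved less than its size. Rb1 made up 22.7% ± 0.584 of it in control and 22.9% ± 2.02 in Al (SD, n = 3; exact permutation test, two-sided p = 0.9), Rbl1 45.7% ± 0.956 and 50.3% ± 3.39 (exact permutation p = 0.2), and Rbl2 31.7% ± 1.10 and 26.7% ± 5.07 (exact permutation p = 0.3). With 3 libraries a group these tests cannot pass 0.05, so they do not show that the makeup was the same. The ratio of Rbl1 to Rb1 was 1.94 to 2.06 in control and 2.06 to 2.30 in Al. The ratio of Rbl1 to Rbl2 was 1.39 to 1.54 in control, 2.23 and 2.16 in Al replicates 1 and 2, and 1.43 in Al replicate 3.

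The level of Cdkn1a, the member that rose most with size factors, was set against those of the pocket protein genes within each library. There were 15.6 to 25.2 units of Cdkn1a FPKM for each unit of Rb1 in control and 103 to 211 in Al. Against Rbl1 the ratio went from 8.04–12.2 to 46.3–94.9, and against Rbl2 from 11.3–17.0 to 66.1–205. These ratios need no scaling between libraries. They set the gene that rose most against genes that fell and share 1 numerator, so they are given as a description, with no test. In all 3 of them Al replicate 3 was the lowest Al library.

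In the order of levels in control, Cdkn1a stood first, followed by Cdkn2c, Cdkn1b, Cdkn2d, Cdkn3, Rbl1, Rbl2, Rb1 and Cdkn2aip. Neighbours in this order did not overlap in FPKM, except Cdkn3 with Rbl1 and Rb1 with Cdkn2aip. In Al the first 4 genes kept their places, Cdkn2aip moved up to the fifth place, and Cdkn3, Rbl1, Rbl2 and Rb1 followed. There Cdkn2d overlapped with Cdkn2aip, and Rbl2 overlapped with both Rbl1 and Rb1, while Rbl1 and Rb1 did not overlap.

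**Figure D3:**
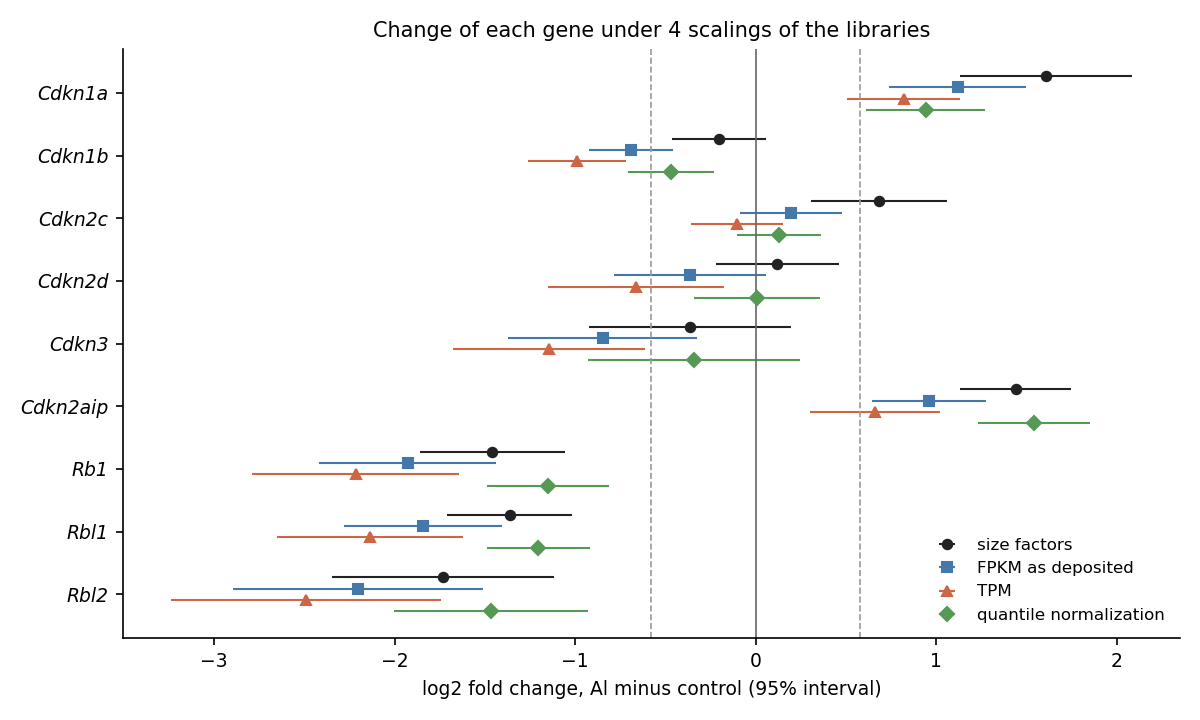
Log2 fold change (Al minus control, points) with its 95% interval (lines) for the 9 tested genes under 4 scalings of the libraries, with dashed lines at the fold threshold of 0.58 in either direction. Cdkn1a and Cdkn2aip lie above the upper threshold and Rb1, Rbl1 and Rbl2 below the lower one under all 4 scalings, while Cdkn1b, Cdkn2c, Cdkn2d and Cdkn3 change side.

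The 5 largest changes with size factors kept direction and call. Over 18 alternative settings, Cdkn1a ranged from 0.82 to 1.80, Cdkn2aip from 0.66 to 1.54, Rb1 from −2.22 to −1.14, Rbl1 from −2.14 to −1.20 and Rbl2 from −2.49 to −1.40 on the log2 scale, each past the thresholds in the same direction throughout. The settings include the reads of every library thinned to the smallest one.

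**Figure D4:**
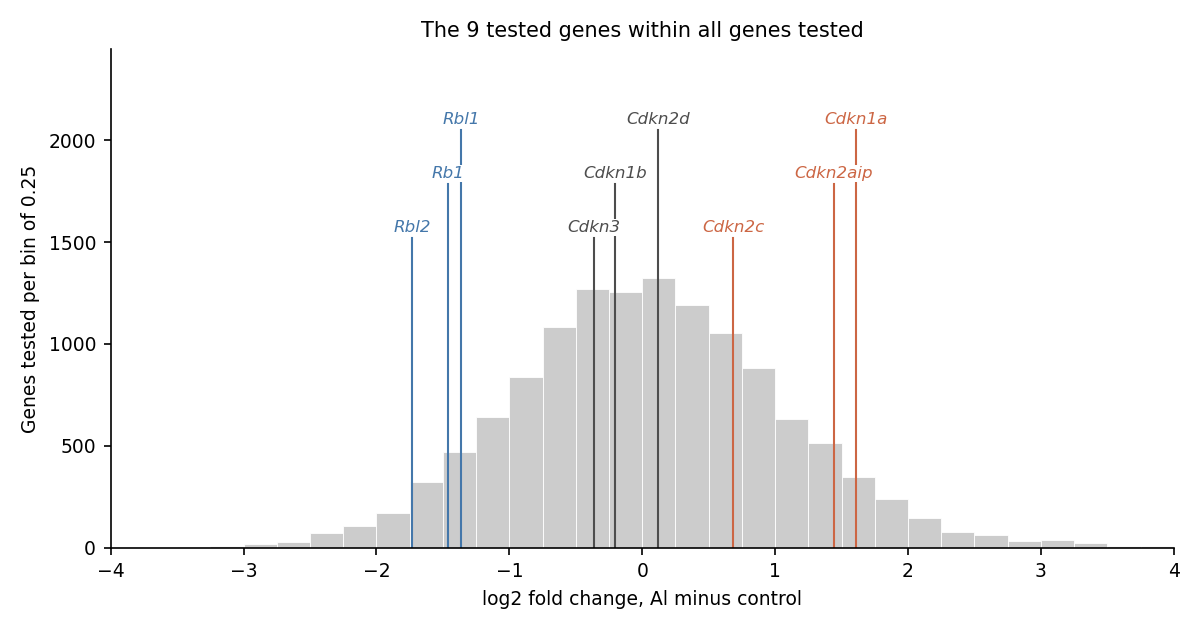
Distribution of the log2 fold change (Al minus control) over the 12889 genes tested, as the number of genes per bin of 0.25, with a line for each of the 9 tested members, orange for called higher, blue for called lower and grey for not called, and genes beyond 4 in either direction not drawn. Cdkn1a, at 1.61, lies above 93.6% of the genes tested, and Rbl2, at −1.73, above 3.35% of them.

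The kinases, cyclins and activating phosphatases that the inhibitors act on changed in both directions. As the background for each list, 26.2% of all genes were called higher and 24.4% lower with size factors, 14.0% and 42.0% on FPKM as deposited, and 9.31% and 53.1% on TPM. Of 18 tested genes of 19 listed, 6 were higher (33.3%) and 5 lower (27.8%), with a median of −0.03. Cyclin D1 (Ccnd1, 29.9 ± 0.765 FPKM in control and 44.5 ± 8.09 in Al) rose by 1.04 on the scaled log2 scale, while cyclin D2 (Ccnd2, 44.1 ± 1.41 and 12.9 ± 0.979 FPKM) fell by 1.28. CDK6, a partner of the D cyclins and target of p18, fell by 1.33 (Cdk6, 11.1 ± 0.913 and 3.15 ± 0.85 FPKM). The more abundant Cdk4, named after its values were seen, was at 295 ± 10.2 and 226 ± 25.6 FPKM. It was not called (0.10, limma adjusted p = 0.617), and stood at −0.39 as deposited, −0.69 on TPM and −0.62 after quantile normalization. Among mitotic genes, Cdk1 rose by 0.995. Of the CDC25 phosphatases that activate CDKs, Cdc25a rose by 0.97 and Cdc25b fell by 1.03. The other called genes of the list, named after their values were seen, were Ccnb1 (0.86), Cdc25c (0.80) and Ccna2 (0.71), which rose, and Ccnb2 (−1.02) and Ccnh (−0.81), which fell. The falls of Ccnd2, Cdk6 and Cdc25b passed under all 4 scalings. The rises of Ccnd1, Cdk1 and Cdc25a did not pass on FPKM as deposited (0.55, 0.51 and 0.48) or on TPM (0.26, 0.21 and 0.19), where 0 genes of the list were called higher and 7 and 12 were called lower.

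The partners of the pocket proteins comprise the E2F factors, their DP partners and the MuvB complex, which binds p107 and p130 to repress genes and MYBL2 to activate them. Of 15 tested genes of 16 listed, 4 were higher and 2 lower, with a median of 0.29. E2f7, a repressor E2F, rose by 1.12 (12.99 ± 0.364 FPKM in control, 20.3 ± 1.61 in Al), and the MuvB genes Lin52 and Lin9 rose by 1.05 and 0.92. Tfdp2, a DP partner, fell by 1.44 (7.21 ± 0.368 and 1.90 ± 0.548 FPKM), and Mybl2 fell by 0.96. On FPKM as deposited the list had 1 gene higher and 4 lower, and on TPM 0 and 7.

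The ubiquitin ligase parts that turn over p21 and p27 had 4 of 8 genes higher (beside 26.2% of all genes) and 0 lower (beside 24.4%), with a median of 0.65. Skp2, the subunit that recognises p27, rose by 1.05 (12.5 ± 0.517 FPKM in control, 18.6 ± 2.15 in Al). Its cofactor Cks1b rose by 1.20 (97.4 ± 15.0 and 159 ± 18.6 FPKM), and Dtl, which recognises p21 on replicating DNA, rose by 0.99. This count depended on the scaling, with 1 higher and 2 lower on FPKM as deposited and 0 and 2 on TPM.

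Among 8 genes listed as regulators of Cdkn1a or Cdkn1b transcription, 3 were higher and 2 lower, with a median of 0.50. The list includes Mdm2, which acts on p53 and not on these promoters. On FPKM as deposited 2 were higher and 3 lower (median 0.01), and on TPM 1 and 3 (median −0.29). Mdm2, which encodes the p53 ubiquitin ligase and is itself a p53 target, was at 10.9, 11.2 and 13.6 FPKM in control and 28.5, 33.1 and 28.6 in Al. It rose by 1.82 (limma adjusted p = 1.82e-05), and by 1.04 to 1.73 under the other scalings. Trp53, the p53 gene, named here after its values were seen, was at 102 ± 1.57 FPKM in control and 107 ± 8.31 in Al (log2 fold change 0.56, limma adjusted p = 0.00546, under the fold threshold), and turned to −0.23 on TPM. Myc rose by 1.07 and Zbtb17, which encodes its partner MIZ1, by 0.82, but neither passed the fold threshold on TPM (0.29 and 0.04), nor did Zbtb17 on FPKM as deposited (0.33). Foxo3 and Foxo4, activators of Cdkn1b, fell by 0.65 and 0.59, the latter just past the threshold and under it after quantile normalization (−0.43).

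**Figure D5:**
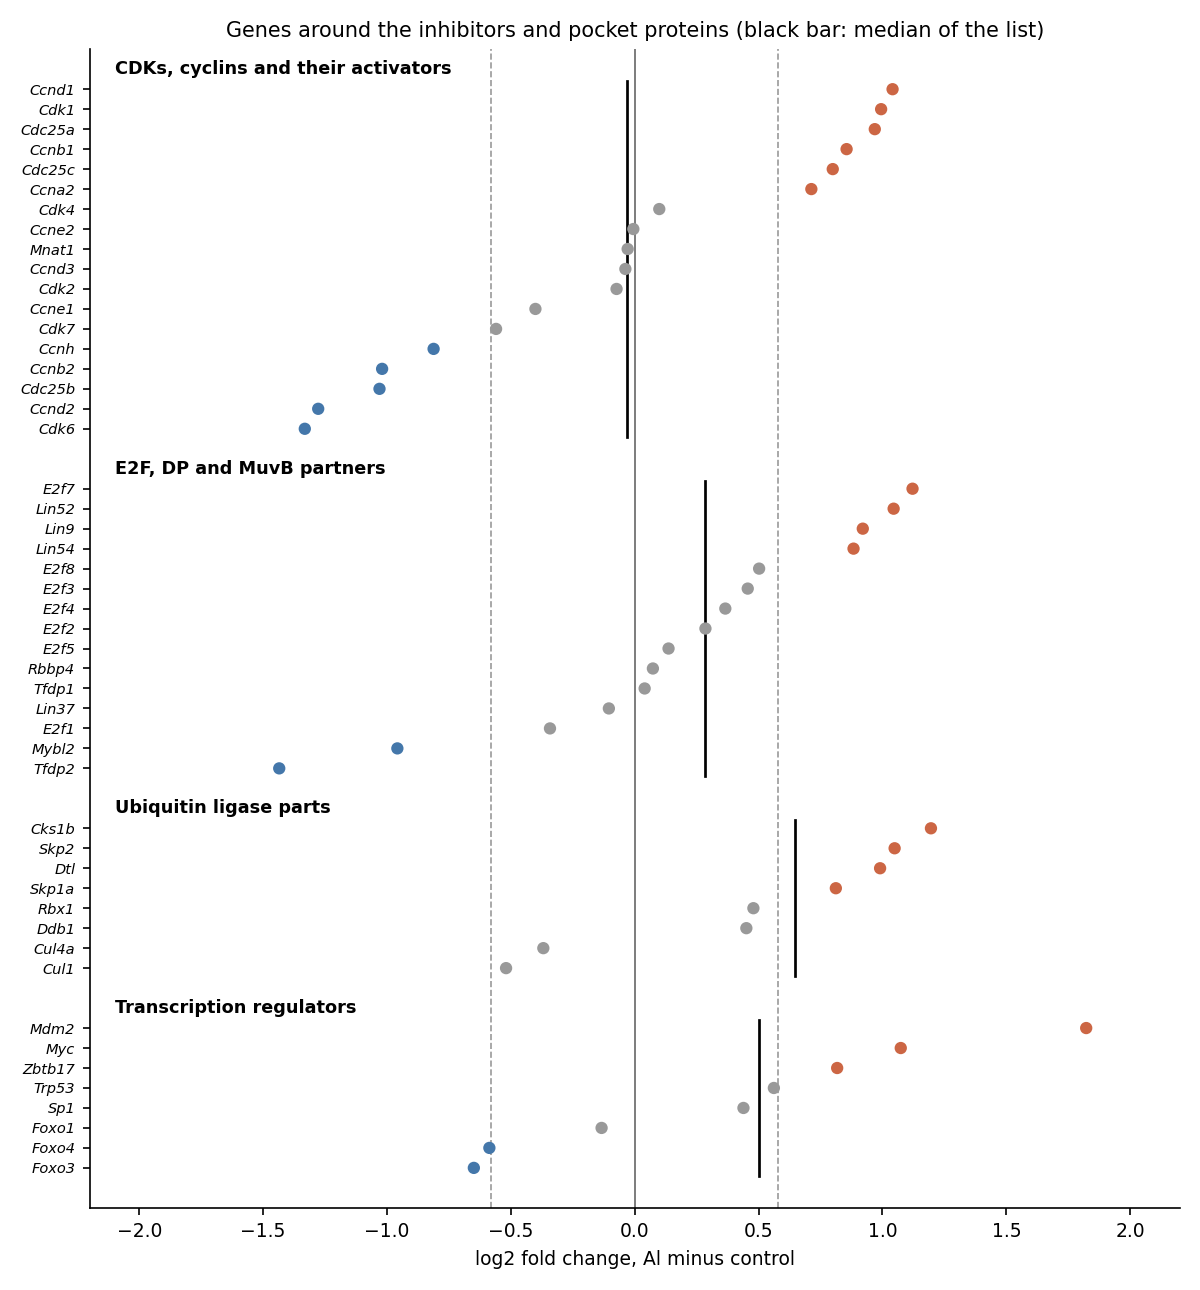
Log2 fold change (Al minus control, size factor scaling) of each tested gene of 4 related lists, 1 row a gene, orange for called higher, blue for called lower and grey for not called, with dashed lines at 0.58 in either direction and a black bar at the median of the list. The kinase and cyclin list spreads to both sides around −0.03, and Mdm2 at 1.82 is the farthest point.

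Among 10348 genes whose mean FPKM reached 1, the genes whose profile over the 6 libraries was nearest to that of Cdkn1a were Bsg (basigin, a membrane glycoprotein), Pabpc4 (a poly(A)-binding protein) and Rpl6 (a ribosomal protein). The root mean square difference from Cdkn1a in centred log2 scaled FPKM was 0.0377, 0.110 and 0.112. For Bsg the FPKM was 281, 290 and 384 in control and 657, 807 and 604 in Al, so that control replicate 3 and Al replicate 2 were the highest of their groups, as for Cdkn1a. This likeness is a description over 6 libraries.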

How the data were processed

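RNA was measured in 6 input libraries, 3 control and 3 Al, and the immunoprecipitated libraries were not analysed here. The deposited values are FPKM, computed by the authors for each gene symbol and library. The submitters' processing notes name fastp, HISAT2, HTSeq and GRCm39, while the study's methods name Trimmomatic, SortMeRNA, HISAT2 and GRCm38, and the series text names another assembly. The table holds no coordinates, and those printed here are of GRCm38 (GENCODE M21 annotation, which matched 94.4% of symbols). The authors called genes with DESeq2, which was not run here.

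FPKM were divided by median-of-ratios size factors (10337 genes) and tested with limma 3.58.1 in R 4.3.3 (lmFit, eBayes with trend), without a replicate block. Read numbers were recovered from the steps between low FPKM values for 17687 of 17688 genes above 0, as whole numbers up to a common divisor. The floor of 3 reads for a value of 0 covers counting error only. Recovery and fit were checked on simulated data. Alternatives covered scaling, GC content, pseudocount, filter, trend, limma's voom on recovered reads, thinned reads, a replicate block and each library left out. Members and gene lists were chosen with earlier results of these data known. All members are named, with the INK4 locus genes, Cdkn2aipnl and, in each related list, the called genes with the 3 largest increases and decreases. Trp53, E2f6, Cdk4 and the other called genes of the kinase and cyclin list were named after their values were seen. Permutation tests were exact and two-sided.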

Additional observations from a re-analysis of the deposited data

How the results depend on the processing

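Cdkn1a, Cdkn2aip, Rb1, Rbl1 and Rbl2 kept direction and call in all 18 alternatives. The other members depended on the scaling. On FPKM as deposited, log2 fold changes were −0.69 for Cdkn1b, 0.20 for Cdkn2c, −0.37 for Cdkn2d and −0.85 for Cdkn3, and 5 members were called lower in place of 3. On TPM they were −0.99, −0.10, −0.66 and −1.14, and 6 members were called lower. These scalings moved the median of all genes by −0.46 and −0.75, and the calls over all genes from 3375 higher and 3143 lower to 1805 and 5417, and to 1200 and 6843. After quantile normalization Cdkn2c was 0.13, with 2859 genes higher and 3115 lower. Without Al replicate 1 Cdkn2c was 0.58, without Al replicate 3 Cdkn2d was −0.034 (−0.034 to 0.26 over all 6 omissions), and without control replicate 3 Cdkn3 was −0.63. Over all 6 omissions Cdkn3 ranged from −0.63 to −0.19 and Cdkn1b from −0.27 to −0.10. Which scaling is nearer to the amounts of RNA per cell was not tested.

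The difference in the Rb1 share of the pocket protein sum, 0.279 percentage points, was −0.488 on thinned reads and ranged from −0.702 to 1.32 with 1 library left out. That of the Rbl2 share, −4.93 points, ranged from −7.86 (without Al replicate 3) to −3.45, and that of the Rbl1 share, 4.65 points, from 3.27 to 6.54. Libraries of the same number did not deviate together (correlations −0.03, −0.03 and −0.07, and no library correlated best with its own number), so the numbers were not taken as pairs. With a replicate block 3 members were higher and 3 lower, as without it, and 3352 and 3123 of all genes. The Al libraries were the shallower ones, and their pocket protein levels rest on 163 to 565 reads a gene.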
